A study of Mus musculus with 4 samples.

Results

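GlyGCC is the deposited table of tRNA-Gly with the anticodon GCC, 1 of 23 tRNA families measured by small RNA sequencing in mouse bone marrow. It was taken by its name in the tables, with all of its 70 positions on the forward strand. Bone marrow of C57BL/6 mice at postnatal day 8 gave 2 libraries of Dnmt2-/- mice and 2 libraries of wild-type (WT) mice, each genotype with replicates 1 and 2. The labels give neither the allele behind the deletion nor whether replicates are separate animals, and the spread behind each p-value may for that reason be technical only. The tables hold tRNA families and no messenger RNA, so neither the loss of Dnmt2 transcript nor bone marrow markers could be checked. In a bulk tissue, fewer cells of a type and less RNA per cell cannot be told apart.

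Transfer RNA brings amino acids to the ribosome and pairs with the codon through its anticodon loop. Ribonucleases such as angiogenin cut tRNAs in that loop, which leaves a 5′ fragment and a 3′ fragment, and 5′ fragments of glycine tRNA are abundant small RNAs in many mammalian tissues. Dnmt2 (also Trdmt1) is a methyltransferase that methylates cytosine 38, at the 3′ side of the anticodon loop, in tRNA-Gly-GCC, tRNA-Asp-GTC and tRNA-Val-AAC, and the mark is known from stressed fly and mouse cells to protect these tRNAs from cleavage. RefSeq names 14 mouse nuclear genes of tRNA-Gly with the anticodon GCC, and the table gives a single profile for all. Their positions in the genome are not reported here, since the sources used here do not name the build behind the tables. Genes of tRNA-Gly-CCC, which fall under the other glycine tRNAs (the family Gly_non_GCC), share much of the 5′ sequence, so a 5′ read may not separate them, and the sources used here do not say how such reads were assigned.

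The values are coverage, the number of reads over each position times a constant of the library that no source explains. Values in a library moved in equal steps, and a step is read here as 1 read. At the highest position of GlyGCC this gave 168272 and 88444 reads in Dnmt2-/- replicates 1 and 2, and 236284 and 135533 reads in WT replicates 1 and 2. Summed over the highest positions of all 23 families, the depth was 267920 and 220277 reads in the Dnmt2-/- libraries and 423186 and 337091 reads in the WT libraries. Positions are counted from 1 at the first row, and the sources used here do not relate them to standard tRNA numbering, so position 38 of the table need not be cytosine 38. The reverse strand held at most 1 and 2 reads at any position in the Dnmt2-/- libraries and 3 in each WT library.

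The profile was that of a 5′ fragment that started at position 1 and ended mainly between positions 30 and 33. Coverage at position 1 was already 96.9% and 91.8% of the highest coverage (the peak) in Dnmt2-/- replicates 1 and 2, and 98.0% and 90.3% in WT replicates 1 and 2. It stayed above 90% of the peak as far as position 30 in all 4 libraries. The peak was at position 22 and 23 in the Dnmt2-/- libraries and at position 20 and 23 in the WT libraries, on a plateau that hardly changed between positions 20 and 24. Coverage per peak read spanned 31.5 and 32 positions in the Dnmt2-/- libraries and 32 and 31.6 positions in the WT libraries. In this extent, the summed coverage divided by the peak, the genotypes overlapped, and the direction between them differed between the numbers. The mean was 31.7 ± 0.350 positions in Dnmt2-/- and 31.8 ± 0.263 in WT (SD, n = 2 each).

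**Figure D1:**
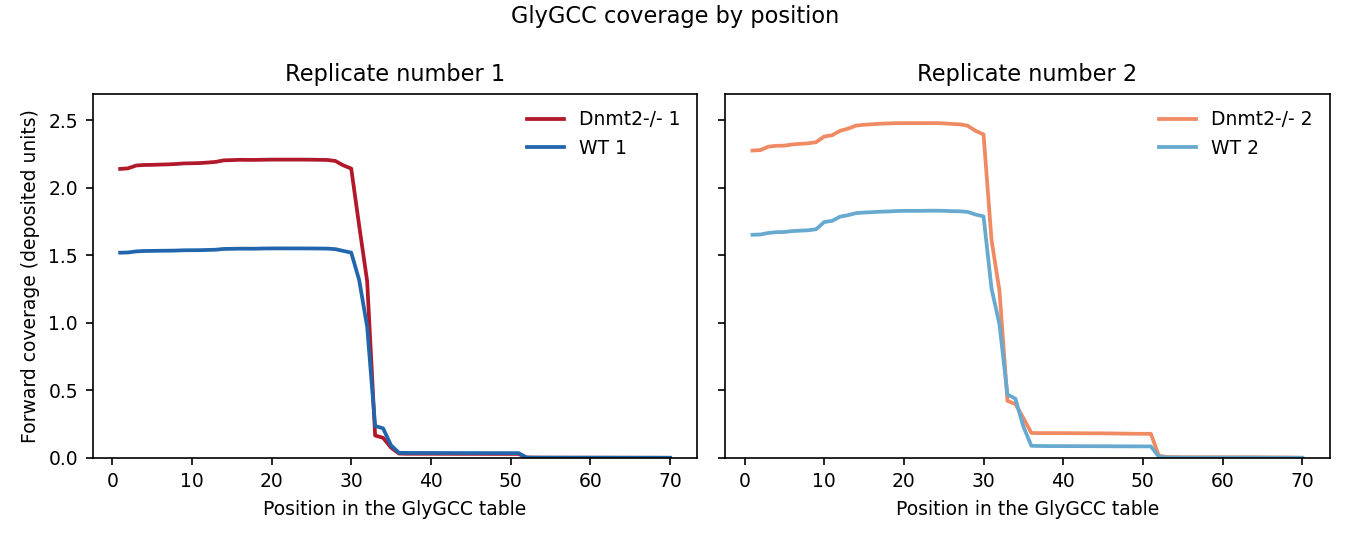
Forward coverage of GlyGCC (deposited units, linear axis) against position in the table, with the Dnmt2-/- and the WT library of replicate number 1 on the left and of number 2 on the right. Up to position 32 the Dnmt2-/- line lies above the WT line of its number, and at positions 33 and 34 it lies below.

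Most coverage was present from the first row, and the gain after it differed between the 2 replicate numbers. From position 1 to the peak, coverage gained 3.13% and 8.20% of the peak in Dnmt2-/- replicates 1 and 2, and 2.05% and 9.74% in WT replicates 1 and 2. On average over the 4 libraries the largest single gain was from position 9 to 10. It was 0.0422% and 1.68% of the peak in the Dnmt2-/- libraries and 0.0250% and 2.91% in the WT libraries. The gain was larger in both libraries numbered 2 than in both numbered 1, and the genotypes overlapped. From position 1 to 9 the gain was 1.85% and 2.51% in the Dnmt2-/- libraries and 1.16% and 2.25% in the WT libraries.

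GlyGCC was the family with the highest coverage in every library. Its coverage summed over positions was 69.6 and 79.3 deposited units in Dnmt2-/- replicates 1 and 2, and 49.7 and 57.9 units in WT replicates 1 and 2. Both Dnmt2-/- libraries lay above both WT libraries, at 1.4 times WT within number 1 and 1.37 times within number 2. On the scale log2(total + 0.001), the difference was 0.47 (SE 0.68, 95% interval −1.21 to 2.15) and did not pass limma's test over all families (adjusted p = 0.973). The test called 0 of 23 families (0.00% called), and 0 had an unadjusted p under 0.05. GlyGCC was itself the median family in this difference, and 21 of the 23 families had a difference above 0. None of the 3 families with Dnmt2 substrates was called in either direction, and the log2 difference was 0.42 for Asp and 0.092 for Val.

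As a share of all tRNA coverage, which does not depend on the constant of the library, GlyGCC held 63.4% and 41.7% in Dnmt2-/- replicates 1 and 2, and 56.7% and 40.4% in WT replicates 1 and 2. Both libraries numbered 2 were low and both numbered 1 were high, and the genotypes overlapped. The share in Dnmt2-/- was 1.12 times that in WT within number 1 and 1.03 times within number 2. Glutamate tRNA (Glu), the second family, held 15.3% and 29.6% in the Dnmt2-/- libraries and 22.2% and 38.1% in the WT libraries. With Glu left out of the total, a choice made after its level was seen, GlyGCC held 74.8% and 59.2% in the Dnmt2-/- libraries and 72.9% and 65.3% in the WT libraries, and the ratio to WT was 1.03 within number 1 and 0.908 within number 2. The log2 difference of the share was 0.10 (SE 0.59, adjusted p = 0.984 with limma), where 0 of 23 families were called (0.00% called) and 0 had an unadjusted p under 0.05. The SE was also 0.59 for Asp, Val, Gly_non_GCC and Glu, so it was pooled over families and is not the spread of GlyGCC alone. The log2 difference of the GlyGCC share turned to −0.051 without Glu, to −0.20 without Dnmt2-/- replicate 1 and to −0.14 without WT replicate 2.

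**Figure D2:**
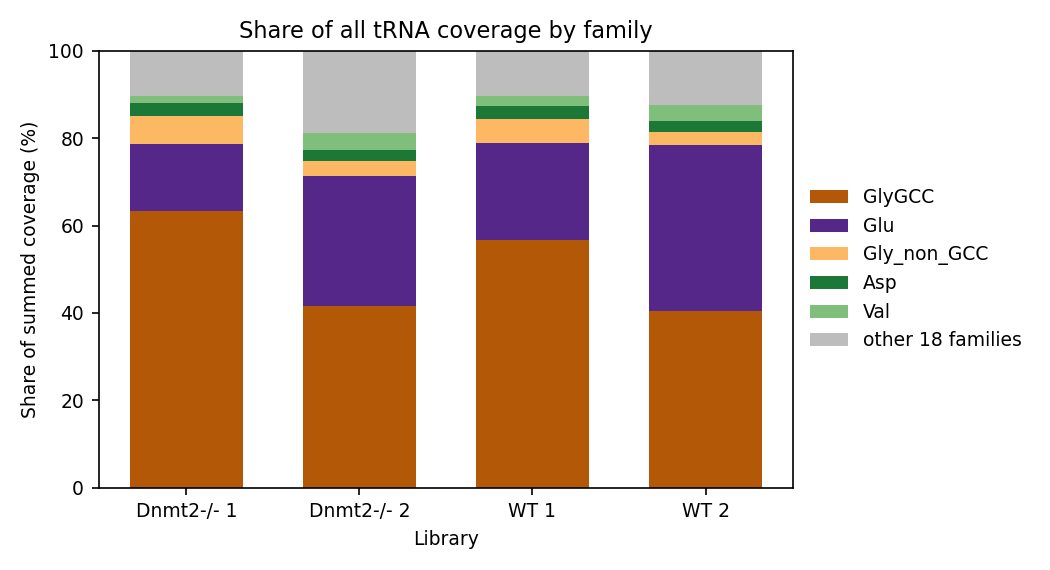
Stacked bars of the share of summed forward coverage (%) held by GlyGCC, Glu, Gly_non_GCC, Asp, Val and the other 18 families in each library. GlyGCC, at the bottom, holds 63.4% and 41.7% in the Dnmt2-/- libraries and 56.7% and 40.4% in the WT libraries.

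Within the glycine tRNAs the share was steadier. GlyGCC held 91.0% and 92.3% of the coverage of GlyGCC and Gly_non_GCC together in Dnmt2-/- replicates 1 and 2, and 91.2% and 93.1% in WT replicates 1 and 2. The ratio of the totals of these families was 10.1 and 12 in the Dnmt2-/- libraries and 10.4 and 13.6 in the WT libraries. The genotypes overlapped on both measures.

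The end of the fragment fell on 3 steps. On average over the 4 libraries the largest drop was from position 32 to 33, followed by those from 30 to 31 and from 31 to 32. From position 32 to 33 coverage dropped by 51.7% and 32.8% of the peak in Dnmt2-/- replicates 1 and 2, and by 47.4% and 28.4% in WT replicates 1 and 2. From position 30 to 31 it dropped by 19.2% and 31.5% in the Dnmt2-/- libraries and by 13.2% and 29.2% in the WT libraries. Libraries numbered 1 thus lost most at the later of these steps, and libraries numbered 2 lost near-equal parts at both. Within each number, the drop at both steps was larger in Dnmt2-/- than in WT, while across numbers the genotypes overlapped. The difference of the means from position 32 to 33 was 4.41 percentage points and turned to −5.05 without Dnmt2-/- replicate 1 and to −5.10 without WT replicate 2. From position 31 to 32 the drop was 18.6% and 15.3% in the Dnmt2-/- libraries and 22.2% and 14.5% in the WT libraries, with no common direction. Summed from position 30 to 33, the drop was 89.5% and 79.6% of the peak in the Dnmt2-/- libraries and 82.8% and 72.1% in the WT libraries.

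Past these steps a smaller set of longer fragments remained, and here the WT libraries lost more as % of the peak. From position 34 to 35 coverage dropped by 3.30% and 4.18% of the peak in Dnmt2-/- replicates 1 and 2, and by 8.17% and 11.3% in WT replicates 1 and 2. As % of the peak this step, singled out after its values were seen, did not overlap between genotypes, at 0.404 times WT within number 1 and 0.371 times within number 2. The mean was 3.74% ± 0.624 in Dnmt2-/- and 9.72% ± 2.19 in WT (SD, n = 2 each). The level fell from 6.71% to 3.41% and from 16.0% to 11.9% in Dnmt2-/- replicates 1 and 2. In WT replicates 1 and 2 it fell from 14.1% to 5.91% and from 23.9% to 12.7%. As a part of the level at position 34, the drop was again smaller in Dnmt2-/- than in WT within each number. Across numbers it was slightly larger in Dnmt2-/- replicate 1 than in WT replicate 2. The genotypes thus overlapped on that scale. From position 35 to 36 the drop was 1.98% and 4.42% in the Dnmt2-/- libraries and 3.52% and 7.78% in the WT libraries, smaller in Dnmt2-/- within each number but overlapping across them. The step from 33 to 34 was small, at 0.779% and 0.987% in the Dnmt2-/- libraries and 1.12% and 1.73% in the WT libraries. At the shoulder before the main drop, positions 28 to 29 lost 1.47% and 1.55% in the Dnmt2-/- libraries and 0.858% and 1.06% in the WT libraries.

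These steps were described and not tested. Of the 69 steps of GlyGCC, both Dnmt2-/- libraries had a larger drop than both WT libraries at 8 steps (11.6%) and a smaller drop at 9 steps (13.0%). Over the 1634 steps of all families the shares were 12.8% and 12.8%, so the number of separated steps in GlyGCC was near the background. Gly_non_GCC, with fewer reads, lost 1.78% and 0.987% from position 34 to 35 in the Dnmt2-/- libraries and 2.79% and 1.82% in the WT libraries. Val lost 7.61% and 11.1% there in the Dnmt2-/- libraries and 14.3% and 16.0% in the WT libraries. His (histidine tRNA) went the other way, with 5.54% and 12.9% in the Dnmt2-/- libraries and 4.0% and 10.03% in the WT libraries. Asp lost 4.0% and 2.49% in the Dnmt2-/- libraries and 4.08% and 2.81% in the WT libraries, which is close to equal. Glu lost 4.66% and 4.43% in the Dnmt2-/- libraries and 5.30% and 5.96% in the WT libraries. Within each number the drop was thus smaller in Dnmt2-/- in Gly_non_GCC, Val, Glu and Asp, as in GlyGCC. In Gly_non_GCC, Val and Glu the genotypes did not overlap either. Among the families listed, only His had a larger drop in Dnmt2-/-. Whether the size of this step differs between families was not tested.

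**Figure D3:**
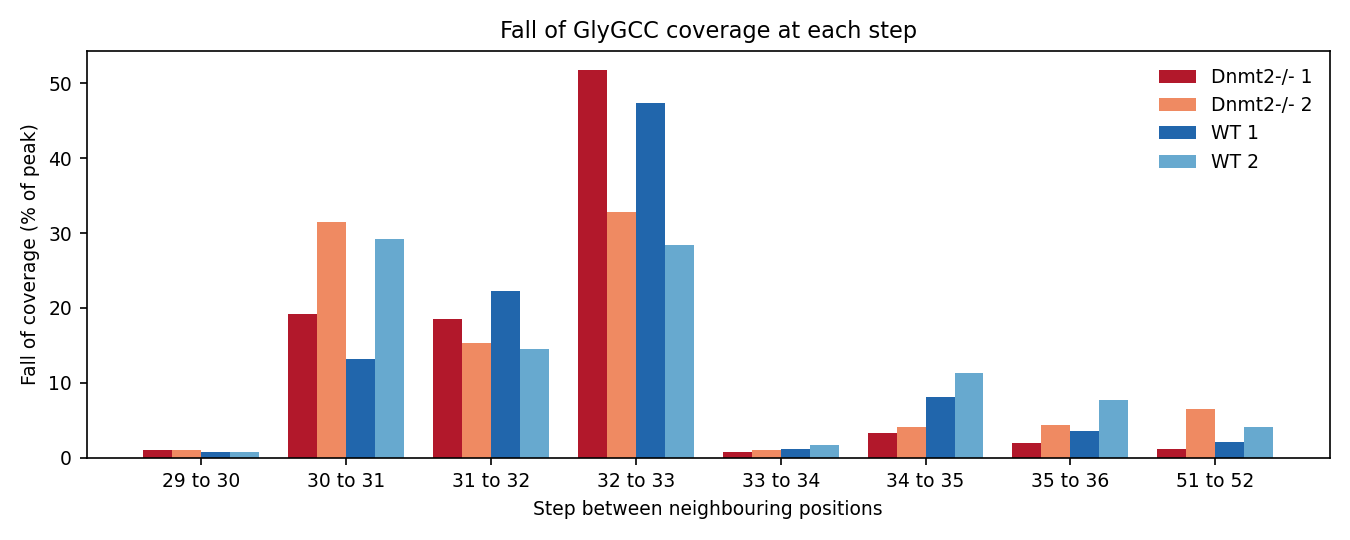
Drop of GlyGCC coverage (% of the peak of the library) at 8 selected steps between neighbouring positions, with bars for Dnmt2-/- replicates 1 and 2 and WT replicates 1 and 2. The step from 32 to 33 is the tallest in every library but WT replicate 2, where the step from 30 to 31 is slightly taller. At the step from 34 to 35 both Dnmt2-/- bars (3.30% and 4.18%) are shorter than both WT bars (8.17% and 11.3%).

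The coverage left after each step shows the same profile as a level. At position 32 it was 59.2% and 49.9% of the peak in Dnmt2-/- replicates 1 and 2, and 62.6% and 54.0% in WT replicates 1 and 2. At position 33 it was 7.49% and 17.0% in the Dnmt2-/- libraries and 15.2% and 25.7% in the WT libraries, so the level in Dnmt2-/- was 0.492 times WT within number 1 and 0.664 times within number 2. The exact (Clopper-Pearson) 95% intervals at position 33, which cover counting error only, were 7.36% to 7.61% and 16.8% to 17.3% in the Dnmt2-/- libraries, and 15.1% to 15.4% and 25.4% to 25.9% in the WT libraries. Dnmt2-/- replicate 2 lay above WT replicate 1, and the spread between libraries of 1 genotype was far wider than the counting error. The last position with at least 10% of the peak was 32 and 35 in the Dnmt2-/- libraries and 34 and 35 in the WT libraries, and the last with at least 50% was 32 and 31 in the Dnmt2-/- libraries and 32 in both WT libraries.

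In deposited units the direction changed along the fragment. At position 1 coverage was 2.14 and 2.28 units in Dnmt2-/- replicates 1 and 2, and 1.52 and 1.65 units in WT replicates 1 and 2. Over positions 1 to 30, Dnmt2-/- had 1.41 to 1.42 times the WT coverage within number 1 and 1.34 to 1.38 times within number 2. At position 33 coverage was 0.165 and 0.423 units in the Dnmt2-/- libraries and 0.236 and 0.470 units in the WT libraries, or 0.701 times WT within number 1 and 0.90 times within number 2. At position 34 these ratios were 0.678 and 0.909. Both Dnmt2-/- libraries lay above both WT libraries at 32 of 70 positions (45.7%), against 17.1% of the positions of all families, and below at 0 of 70, against 0.302%. The 32 positions are positions 1 to 32, which share their reads and so amount to a single difference in level.

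Neither scale gave a position of GlyGCC that passed limma's test. As deposited, 0 of 70 positions and 0 of all 1656 positions with coverage were called (0.00% called), and 0 had an unadjusted p under 0.05. The log2 difference was 0.48 (SE 0.63, adjusted p = 0.999) at position 1, 0.47 (SE 0.64) at position 23, −0.33 (SE 0.81) at position 33 and −0.35 (SE 0.82) at position 34. Position 33 turned to 0.34 without Dnmt2-/- replicate 1 and to 0.16 without WT replicate 2. Among positions where the genotypes did not overlap, position 3 had the largest log2 difference in size, 0.49 (SE 0.63, adjusted p = 0.999 with limma). The median log2 difference over all 1656 positions was 0.44.

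With each library divided by its own peak, 0 of 70 positions were called as well, against 0 of 1656 over all families (0.00% called). Over all families 50 positions had an unadjusted p under 0.05, and 0 of these were in GlyGCC. The log2 difference of the scaled level was 0.0042 (SE 0.088) at position 1, −0.099 (SE 0.18) at position 31, −0.097 (SE 0.15) at position 32, −0.80 (SE 0.61, 95% interval −2.87 to 1.26) at position 33 and −0.82 (SE 0.63) at position 34. The adjusted p was 1 at each of these positions with limma, and the intervals at positions 33 and 34 include both no difference and a several-fold one. With the replicate number as a block, the SE was 0.17 at position 33 and 0.19 at position 34 (adjusted p = 0.455 and 0.467 with limma). At position 33 the value was −0.21 without Dnmt2-/- replicate 1 and −1.39 without Dnmt2-/- replicate 2. Genotypes were separated at 1 position upwards (position 18) and at 2 downwards (positions 29 and 30), where 15.9% and 12.6% of the positions of all families were separated in these directions. Position 30 had the largest scaled difference among these, −0.015 (SE 0.063, adjusted p = 1 with limma). The level there was 97.0% and 96.6% of the peak in the Dnmt2-/- libraries and 98.0% and 97.7% in the WT libraries. The SE draws on the variance of the positions of all families and is not the spread at position 30 alone.

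**Figure D4:**
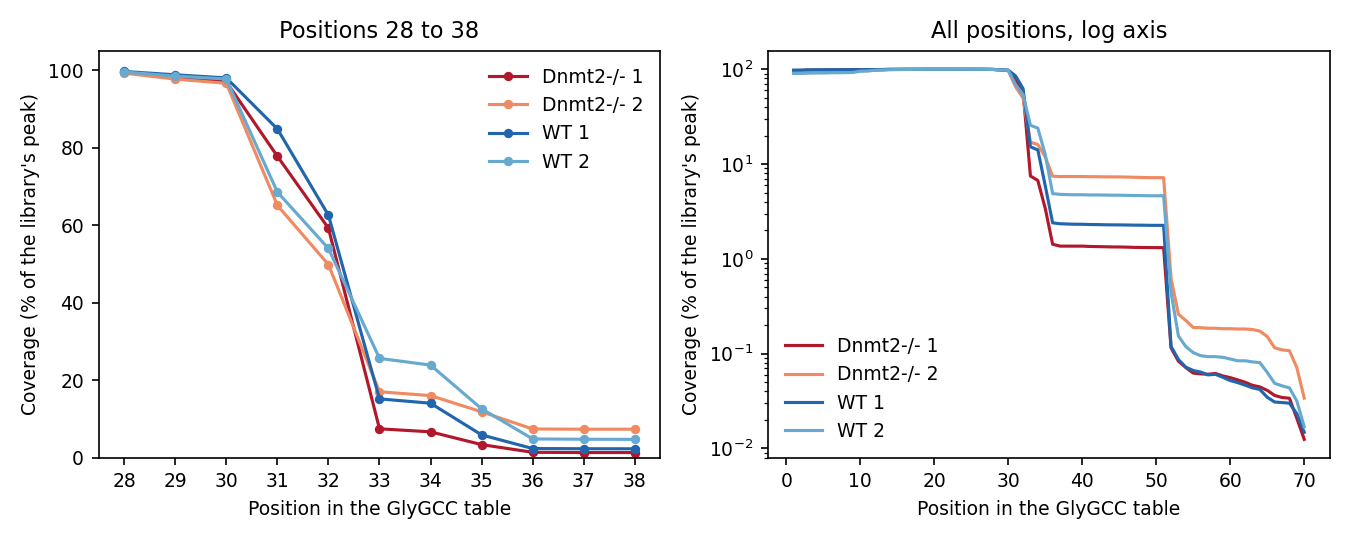
Coverage of GlyGCC as % of the peak of each library, at positions 28 to 38 on a linear axis (left) and at all positions on a log axis (right). At position 33 the Dnmt2-/- libraries are at 7.49% and 17.0% and the WT libraries at 15.2% and 25.7%, and on the right a flat stretch from position 36 ends with a step from position 51 to 52.

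Downstream of the main ends lay a flat stretch of low coverage. Over positions 36 to 51 it was 1.31% to 1.43% of the peak in Dnmt2-/- replicate 1 and 7.18% to 7.44% in Dnmt2-/- replicate 2, against 2.25% to 2.40% in WT replicate 1 and 4.63% to 4.87% in WT replicate 2. Both libraries numbered 2 were high, and the direction between genotypes differed between the numbers. At position 38 the level in Dnmt2-/- was 0.585 times WT within number 1 and 1.55 times within number 2, with 2293 and 6537 reads in the Dnmt2-/- libraries and 5507 and 6451 reads in the WT libraries. No step within this stretch gained more than 2 and 14 reads in the Dnmt2-/- libraries, and none gained a read in the WT libraries. From position 51 to 52 coverage then dropped by 91.2% and 91.3% of its level at 51 in the Dnmt2-/- libraries, and by 94.7% and 90.4% in the WT libraries. Between these ends the stretch lost 8.04% and 3.46% of its level at position 36 in the Dnmt2-/- libraries and 5.97% and 5.09% in the WT libraries.

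The step was smaller in Gly_non_GCC and Val and near 0 in Asp and cysteine tRNA (Cys). From position 51 to 52 Gly_non_GCC lost 56.8% and 38.9% of its level in the Dnmt2-/- libraries and 67.6% and 38.7% in the WT libraries. Val lost 24.7% and 30.8% in the Dnmt2-/- libraries and 39.6% and 28.6% in the WT libraries. Asp lost 0.325% and 0.382% in the Dnmt2-/- libraries and 0.983% and 0.409% in the WT libraries. For Cys the change was a loss of 0.913% and 0.676% in the Dnmt2-/- libraries, and in the WT libraries a gain in replicate 1 and a loss of 0.806% in replicate 2. Over the 20 other families with at least 30 reads at position 51 in each library, the median was 2.02%. The sequencing read length, which would end reads that start at position 1 at a common place, does not appear in the sources used here, and its part in the step was not tested.

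The 3′ remainder, the share of GlyGCC coverage from position 39 to the end, was 0.583% and 3.07% in Dnmt2-/- replicates 1 and 2, and 0.958% and 1.98% in WT replicates 1 and 2. Of this remainder, 94.5% and 96.4% in the Dnmt2-/- libraries and 96.8% and 97.0% in the WT libraries lay at positions 39 to 51. The remainder was thus mostly the flat stretch that began at position 36, and it does not count separate 3′ fragments. The highest position from 39 on was position 40 in both Dnmt2-/- libraries and position 39 in both WT libraries, so no separate 3′ peak was present. On the log2 odds scale the difference of the remainder was −0.0070 (SE 0.86, 95% interval −1.95 to 1.94, adjusted p = 0.994 with limma), where 0 of 23 families were called (0.00% called) and 0 had an unadjusted p under 0.05. It was 1.12 without Dnmt2-/- replicate 1 and −1.13 without Dnmt2-/- replicate 2, and −0.50 without WT replicate 1 and 0.49 without WT replicate 2.

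Coverage of the last 19 positions was close to none. From position 52 to the end lay 0.0318% and 0.110% of GlyGCC coverage in the Dnmt2-/- libraries and 0.0307% and 0.0588% in the WT libraries. At position 52 there were 194 and 550 reads in the Dnmt2-/- libraries and 282 and 604 reads in the WT libraries. At position 60 there were 94 and 162 reads in the Dnmt2-/- libraries and 123 and 119 in the WT libraries, and at position 70 there were 21 and 30 in the Dnmt2-/- libraries and 35 and 23 in the WT libraries. In deposited units all 19 positions were higher in Dnmt2-/- than in WT within each number, with a median ratio of 1.47 in number 1 and 2.83 in number 2. As a share of the peak the median ratio was 1.03 in number 1 and 2.09 in number 2. These 19 positions share reads and are not separate results. In deposited units the log2 difference was above 0 at 1383 of the 1656 positions of all families.

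The extent of the fragment did not pass the test. Its log2 difference was −0.0038 (SE 0.057, 95% interval −0.18 to 0.17, adjusted p = 0.984 with limma), where 0 of 23 families were called (0.00% called) and 0 had an unadjusted p under 0.05. Within positions 1 to 38 the extent was 31.3 and 31 positions in the Dnmt2-/- libraries and 31.7 and 31 positions in the WT libraries. Asp, a substrate whose coverage lies mostly 3′ of the anticodon, spanned 36.1 and 37.5 positions in the Dnmt2-/- libraries and 39.6 and 43.3 positions in the WT libraries.

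In the shape of its profile GlyGCC was most like Gly_non_GCC, then Cys and histidine tRNA (His). Over positions 1 to 70 the Pearson correlation of the mean scaled profiles was 0.999 with Gly_non_GCC, 0.991 with Cys and 0.985 with His, and −0.883 with Asp. The 70 positions share reads and libraries, so these values only describe the shapes. The drop of Gly_non_GCC from position 32 to 33 was 52.6% and 35% of its peak in the Dnmt2-/- libraries and 48.4% and 32.3% in the WT libraries, larger than that of GlyGCC in each library. It differed in the 3′ part, where 2.30% and 5.79% of its coverage in the Dnmt2-/- libraries and 3.94% and 5.58% in the WT libraries lay from position 39 on. His started less often at position 1, where it had 83.9% and 61.9% of its peak in the Dnmt2-/- libraries and 82.4% and 53.6% in the WT libraries. Differences between families were not tested.

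**Figure D5:**
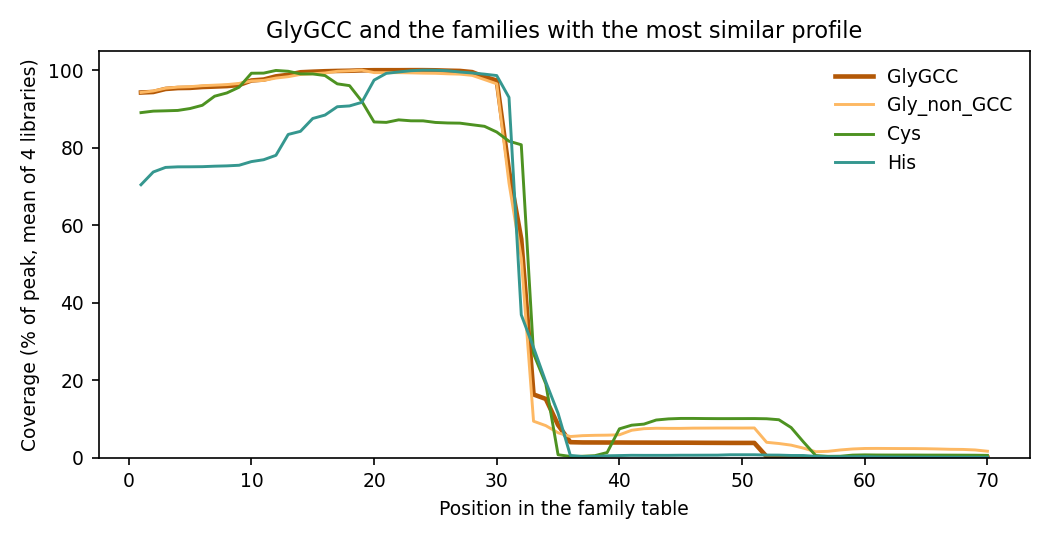
Mean profile over the 4 libraries (coverage as % of the peak of the family) against position for GlyGCC and for Gly_non_GCC, Cys and His, the families with the highest correlation with it (0.999, 0.991 and 0.985). GlyGCC and Gly_non_GCC run together to position 30, and Gly_non_GCC is lower from position 31 to 35 and higher from position 36 on.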

How the data were processed

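Small RNA of bone marrow was sequenced in 2 Dnmt2-/- and 2 WT libraries. Per the labels' protocols, total RNA was DNase-treated, end-repaired with T4 polynucleotide kinase and made into size-selected libraries. Tools were CASAVA 1.8.3 and Bowtie, per the submitters' processing notes; the sources used here give no alignment settings. Size selection bounds the insert length, so coverage is not the level of intact tRNA. The authors deposited 48 tables of signal, per the file headers coverage per position, library and strand. All 9766 values above 0 were whole multiples of a step per library (within 0.01 of a step).

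The table of all glycine tRNAs equals GlyGCC plus Gly_non_GCC within 16 steps at each position and was left out, which leaves 23 families. Tests used limma 3.58.1 in R 4.3.3 with genotype as the sole term, two-sided, with Benjamini-Hochberg adjustment over all 23 families or 1656 positions at a threshold of 0.05. Limma draws the variance of each family or position towards that of all of them. An SE, interval or p-value here is thus not based on the spread of GlyGCC alone. Pseudocounts were 0.001 for totals, scaled profiles and log2 odds, 1e-05 for shares of all coverage and 1e-04 for positions, so that log2 differences understate changes of low values. With 2 against 2 libraries a two-sided exact permutation test cannot go below p = 0.333 and was not used. The code of the fits was run on simulated data with independent noise and large planted differences. Positions here share reads and the libraries vary more, so that run does not show the power of these tests.

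The rule for named features gives GlyGCC in every comparison, Asp, Val, Gly_non_GCC and Glu beside it, the 3 families of highest profile correlation, and in GlyGCC position 1, the peak, the 3 largest drops, the last positions at 50% and 10% of the peak, positions 34 and 38, the highest position from 39 on and the largest separated difference. Members, lists and tests were chosen with earlier results of these data known. Alternatives were each library left out (the lone library of a genotype is then assumed to vary like the other genotype), the replicate number as a block, and other scalings, windows, pseudocounts and filters.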

Additional observations from a re-analysis of the deposited data

How the results depend on the processing

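No alternative gave a call for GlyGCC, in families or positions. Of 54 recomputed values of the tested results 45 kept their direction or count and 9 turned. Among the 45, 9 on each position scale were counts of called positions that stayed at 0, which do not bear on direction. Of 162 values at single positions 142 kept their direction and 20 turned. Directions are those of log2 differences, Dnmt2-/- minus WT. The GlyGCC total ranged from 0.36 to 0.58 with single libraries left out and kept its direction in all 11 alternatives (0.10 with libraries rescaled to 1 total, 0.031 with 1 median family). Leaving out single libraries gave −0.20 to 0.41 for the share of all coverage, −1.13 to 1.12 for the 3′ remainder, −0.015 to 0.0075 for the extent, and 0 called positions on both scales. The difference in the drop from 32 to 33 was −5.10 to 13.9 percentage points with single libraries left out (4.41 with all), and that from 34 to 35 was −7.53 to −4.43 (−5.98 with all). The share turned to −0.20 without Dnmt2-/- replicate 1, −0.14 without WT replicate 2 and −0.051 without Glu. The remainder turned to 1.12 without Dnmt2-/- replicate 1, 0.49 without WT replicate 2, 0.021 from position 45 on and 0.21 from position 52 on, and the extent to 0.0075 without Dnmt2-/- replicate 1 and 0.0046 without WT replicate 1.

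At single positions as deposited, leaving out single libraries gave −1.01 to 0.34 at position 33, −1.06 to 0.36 at 34, −0.90 to 1.71 at 38 and −0.60 to 1.95 at 52. Scaled to the peak it gave −0.055 to 0.063 at position 1, −0.25 to 0.054 at 31, −0.22 to 0.027 at 32, −1.23 to 1.12 at 38 and −0.68 to 1.06 at 52, and position 38 also turned to 0.024 with a pseudocount of 0.01 and to 0.066 relative to the family total. Scaled positions 33 and 34 stayed below 0 in each alternative. The cause of these turns was not tested.

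With the replicate number as a block, the GlyGCC total was at 0.47 (adjusted p = 0.351 with limma) and 0 GlyGCC positions were called, with 12 of 70 at an unadjusted p under 0.05 as deposited, against 216 of 1656 positions of all families. The block called 2 of 23 families on the total and 1 on the 3′ remainder, none of them GlyGCC, and changed no other call of a family. What the numbers stand for is not in the labels. Same-numbered libraries deviated together (r = 0.862 over 23 family totals), which is a hint from the data. Over the 70 positions of the scaled GlyGCC profile, which share reads, r was 0.931. Alternatives without Glu, from position 52 on, over positions 1 to 51, and the drops without single libraries were chosen after seeing the data. Depth limits the last 19 positions, with 21 to 604 reads.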
